A study of Homo sapiens with 6 samples.

Results

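CTSV and 9 related lysosomal protease genes were followed in Huh7 cells after CTSV was knocked down. Huh7 is a human hepatocellular carcinoma line. The genes are those of the cathepsins V, L, B, C, D, Z, A, H and O and of legumain (LGMN). They were chosen by name as the knocked-down target and well measured relatives, 10 of 27394 gene names in the count table. Each had 1 entry and each passed the filter on low counts, so the selection favours genes that these cells express. The cathepsin gene CTSF was not among the 10, though it had more reads than CTSH and CTSO. It rose (log2 fold change 0.60) and is described with the other cathepsins below. The libraries came from 3 samples of Huh7 cells with a short hairpin RNA (shRNA) against CTSV and 3 samples with a control shRNA, all grown in DMEM with 10% fetal bovine serum. The labels call the second group wild type. How many shRNAs were used, their sequences and whether the lines are clones is not given in the labels. Nor do these state that replicates are separate cultures, so the variation behind each p-value may be technical.

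Cathepsins are proteases that are made as inactive precursors in the secretory pathway, tagged with mannose 6-phosphate, carried to the lysosome and activated there at acidic pH. Most are papain-like cysteine proteases (V, L, B, C, Z, H and O), while cathepsin D is an aspartic and cathepsin A a serine protease. Legumain cuts after asparagine and processes several cathepsin precursors. Cathepsin V, also called cathepsin L2, is the closest human relative of cathepsin L and is known from thymus, testis and cornea. Cathepsin L is broadly expressed. Cystatins are the natural inhibitors of the cysteine cathepsins. The genes are scattered over the genome, since on hg38 CTSC and CTSD (1752752 to 1764573, minus strand) lie on chromosome 11 and CTSZ (58995185 to 59007247, minus strand) and CTSA (45890144 to 45898820, plus strand) on chromosome 20. CTSH lies on chromosome 15 (78921058 to 78949574), CTSO on chromosome 4 (155924118 to 155953917) and LGMN on chromosome 14 (92703807 to 92748702), each on the minus strand. All 10 are annotated as protein coding.

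CTSV and CTSL lie on chromosome 9, with 9.30 Mb between them. On hg38, CTSV (ENSG00000136943) spans 97029679 to 97039643 on the minus strand and CTSL (ENSG00000135047) spans 87725519 to 87731393 on the plus strand. In GENCODE v29 they have coding sequences of 1002 and 999 bases, each in a transcript of 8 exons. Of 999 aligned coding bases, 834 were identical (83.5%), and the longest run without a difference was 40 bases. The stretches below show how much the 2 coding sequences differ in 2 places. How well reads of the 2 genes were kept apart was not tested. The first pair holds that longest run and codes for the surroundings of the active-site cysteine, from base 405 to 494 of each coding sequence. It reads 5′ to 3′ on the coding strand, with capitals at the bases that differ, 5 of 90.
CTSV chr9:97036650-97036739 minus strand: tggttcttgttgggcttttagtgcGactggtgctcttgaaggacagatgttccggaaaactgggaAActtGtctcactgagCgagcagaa
CTSL chr9:87728593-87728682 plus strand: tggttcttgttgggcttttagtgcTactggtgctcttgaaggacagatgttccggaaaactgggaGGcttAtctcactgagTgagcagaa
The second pair, bases 36 to 125 of each coding sequence, is the 90-base stretch with the most differences among those that lie in 1 exon of each gene. It differs at 24 bases, again in capitals.
CTSV chr9:97037919-97038008 minus strand: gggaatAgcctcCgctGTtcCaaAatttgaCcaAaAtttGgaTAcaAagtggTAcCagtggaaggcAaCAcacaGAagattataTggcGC
CTSL chr9:87727639-87727728 plus strand: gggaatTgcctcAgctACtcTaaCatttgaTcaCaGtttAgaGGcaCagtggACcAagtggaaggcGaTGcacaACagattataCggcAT

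No window of 50 bases of the CTSV transcript occurred in a CTSL transcript. Of its 4273 windows of 50 bases, 18 occurred in transcripts of other genes (CLEC2D, ERVK9-11 and RAD9A), and of its windows of 75 bases 0 did. For CTSL, 16 of 2128 windows of 50 bases occurred in transcripts of CTSL pseudogenes and 0 of its windows of 75 bases. In end-to-end alignments of the CTSV coding sequence with those of the other 8 genes, the longest run of identical bases was 7 to 14. Identical runs outside these alignments were not counted. The labels give neither the read length nor how multiply matching reads were counted. CTSD is different in this respect, since 60.6% of its 50-base windows also occur in overlapping annotated genes, chiefly AC068580.4 on the same strand, which was not analysed here. In CTSA 24.0% of such windows are shared, with PLTP and NEURL2 on the opposite strand and the antisense gene AL008726.1. The counts of CTSD and CTSA are uncertain for this reason, because the counting of shared reads and the use of strand are not stated. In CTSC, CTSZ, CTSH and CTSO 0 windows were shared, and in CTSB and LGMN 2.67% and 4.36% were.

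Library totals lay between 16258803 and 18106207 counts. The hepatocyte markers ALB, AFP, TF, APOA1, APOB, TTR, SERPINA1 and AHSG were all detected, and 6 of 8 rose and 1 fell in the test described below, which called 18.7% of all 15968 tested genes higher and 21.6% lower. Their summed level was 40270 to 41321 counts per 1000000 (CPM) in CTSV shRNA libraries and 32676 to 33421 CPM in control libraries. Among 6 markers of myeloid cells, which are rich in cathepsins, 3 passed the filter, and their summed level was 61.7 to 70.5 CPM in CTSV shRNA libraries and 81.0 to 91.2 CPM in control libraries, most of it from the lysozyme gene LYZ. PTPRC, CD68 and CSF1R were not analysed here. Of 5 fibroblast markers 3 passed the filter, with a summed level of 59.1 to 65.3 CPM in CTSV shRNA libraries and 44.5 to 48.3 CPM in control libraries. The collagen gene COL1A2 among them was at 19.1 ± 1.68 CPM in CTSV shRNA libraries and 9.43 ± 0.711 CPM in control libraries. It rose by 1.02 on the log2 scale (adjusted p = 4.6e-08, edgeR), and LUM rose by 0.21 (adjusted p = 0.0489, edgeR). PDGFRB, at 0.836 CPM in CTSV shRNA libraries and 1.20 CPM in control libraries, was not called at -0.51. COL1A1 did not pass the filter and DCN was not analysed here. Of 4 endothelial markers only PECAM1 passed the filter. It was at 17.3 to 19.2 CPM in CTSV shRNA libraries and 16.7 to 21.7 CPM in control libraries. VWF, CDH5 and KDR were not analysed here. The markers of B and T cells summed to under 1 CPM in each library. Mitochondrially encoded genes took 11.6% ± 0.208 of counts in CTSV shRNA libraries and 9.23% ± 0.245 in control libraries (SD, n = 3 each). The part of these shifts in the results below was not tested, except that mitochondrial genes were left out in 1 alternative. In bulk samples, fewer cells of a type and less RNA per cell cannot be told apart.

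CTSV mRNA was lower in CTSV shRNA cells and was the large change among the 10 genes. The CTSV shRNA libraries held 304, 264 and 296 CTSV reads and the control libraries 755, 740 and 658. Scaled with TMM factors, these are 18.4, 16.0 and 16.3 CPM in CTSV shRNA libraries and 42.3, 44.5 and 41.0 CPM in control libraries. The highest knockdown library was thus below the lowest control library. In edgeR's quasi-likelihood test over 15968 genes the log2 fold change of CTSV was -1.34 with an SE of 0.0958, at a Benjamini-Hochberg adjusted p of 7.2e-14. The remaining level was 0.396 of the control level, with a 95% interval of 0.346 to 0.453. Knockdown was therefore partial at the level of mRNA, and protein was not measured in these data.

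CTSL, the closest relative of CTSV, did not pass the test in either direction. It stood at 91.0, 83.1 and 68.7 CPM in CTSV shRNA libraries and at 81.2, 72.4 and 74.5 CPM in control libraries. The groups overlap, and knockdown library 3 is the lowest of all 6 while libraries 1 and 2 are the highest. The log2 fold change was 0.09 with a 95% interval of -0.06 to 0.24 (adjusted p = 0.368, edgeR), so the interval holds changes between 0.957-fold and 1.18-fold. CTSL was called higher without knockdown replicate 3 (log2 fold change 0.20, adjusted p = 0.0301, edgeR), and its log2 fold change was -0.0063 without knockdown replicate 1. Of the CTSL pseudogenes with reads, CTSLP2 had 29, 12 and 32 reads in CTSV shRNA libraries and 2, 17 and 8 in control libraries, and CTSLP8 had 0, 8 and 0 reads in CTSV shRNA libraries and 0 in each control library.

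Within a library, the share of CTSV in the reads of the CTSV and CTSL pair does not depend on scaling between libraries. CTSV made up 16.8%, 16.1% and 19.2% of the pair's reads in CTSV shRNA libraries and 34.3%, 38.1% and 35.5% in control libraries. The 95% Wilson intervals run at most from 14.4% to 21.2% in the first group and from 32.3% to 40.3% in the second, and cover counting error only. The means were 17.4% ± 1.59 in CTSV shRNA libraries and 35.9% ± 1.95 in control libraries (SD, n = 3 each, exact two-sided permutation test p = 0.1). That is the smallest p that 3 against 3 libraries can give.

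**Figure D1:**
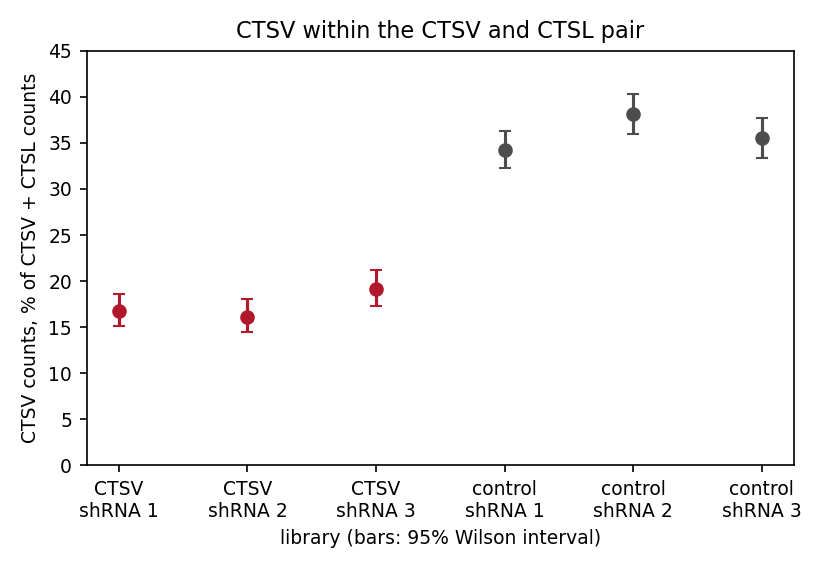
CTSV counts as a percentage of CTSV plus CTSL counts (y axis) in each library (x axis), with 95% Wilson intervals as bars. The 3 CTSV shRNA libraries sit between 16.1% and 19.2% and the 3 control libraries between 34.3% and 38.1%.

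CTSV was lower against each of the other 9 genes when both were read in the same library. The log2 ratio of CTSV to CTSL averaged -2.25 in CTSV shRNA libraries and -0.83 in control libraries, a difference of -1.42. Over all 9 ratios the difference lay between -1.20 (against LGMN) and -1.58 (against CTSB). In all 9 ratios the groups did not overlap. Each exact two-sided permutation test gave p = 0.1, the smallest possible, which is 0.1 after adjustment over the 9 comparisons. All 9 ratios share the CTSV counts, so they restate its fall and are not separate support for it.

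CTSB rose and CTSC fell, both by small amounts. CTSB encodes cathepsin B, an endopeptidase that can also trim dipeptides from the carboxyl end of proteins. It was at 179.5, 188.9 and 191.6 CPM in CTSV shRNA libraries and at 148.8, 159.6 and 164.0 CPM in control libraries, and the groups do not overlap. Its log2 fold change was 0.25 (SE 0.0523, adjusted p = 0.00023, edgeR), which is 1.19-fold with a 95% interval of 1.10 to 1.28. The gene (ENSG00000164733) lies on chromosome 8 from 11842524 to 11869448, minus strand.

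CTSC encodes cathepsin C, or dipeptidyl peptidase I, which activates the serine proteases of immune cell granules. It was at 227.2, 234.4 and 234.1 CPM in CTSV shRNA libraries and at 250.6, 260.0 and 255.9 CPM in control libraries, again without overlap. The log2 fold change was -0.14 (SE 0.0468, adjusted p = 0.0157, edgeR), or 0.908 of the control level with a 95% interval of 0.850 to 0.969. Without knockdown replicate 1 the fall was not called (-0.13, adjusted p = 0.0673, edgeR), and with offsets for transcript length and GC content it was -0.22 (adjusted p = 2.6e-05, edgeR). These offsets lowered the table as a whole, with the median over all genes going from 0.02 to -0.07. The larger fall therefore cannot be read as a change of CTSC alone. CTSC (ENSG00000109861) spans 88293592 to 88337787 on the minus strand of chromosome 11. Without mitochondrial genes in the totals, CTSB was at 0.24 and CTSC at -0.14 on the log2 fold change scale and both were called.

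CTSD, CTSZ, CTSA, CTSH, CTSO and LGMN did not pass the test either. Their 95% intervals reflect the spread between libraries, and not the choice of processing or the uncertain counts of CTSD and CTSA. CTSA encodes cathepsin A, the carboxypeptidase that protects lysosomal beta-galactosidase and neuraminidase. It was at 124.2, 117.6 and 119.4 CPM in CTSV shRNA libraries and at 114.9, 122.7 and 123.8 CPM in control libraries, and the log2 fold change was 0.00 with a 95% interval of -0.11 to 0.11. The groups overlap throughout, and without some libraries the sign of this value near 0 turned. CTSD, the aspartic protease gene, was at 50.1, 37.6 and 41.0 CPM in CTSV shRNA libraries and at 38.6, 46.6 and 39.4 CPM in control libraries. Its groups overlap and its interval was -0.14 to 0.24.

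CTSZ encodes cathepsin Z, also called cathepsin X, a carboxypeptidase. It was at 134.8, 138.6 and 132.9 CPM in CTSV shRNA libraries and at 136.1, 159.7 and 144.7 CPM in control libraries. Only control library 1 lies within the knockdown range, and the log2 fold change was -0.12 (0.922-fold with a 95% interval of 0.852 to 0.999, adjusted p = 0.100, edgeR). Without control replicate 1 it was -0.17 and was called (adjusted p = 0.0266, edgeR). LGMN was at 47.7, 51.0 and 53.6 CPM in CTSV shRNA libraries and at 52.4, 59.3 and 56.3 CPM in control libraries. Its log2 fold change was -0.14 (95% interval -0.29 to 0.01, adjusted p = 0.135, edgeR), and it was called with offsets for transcript length and GC content (-0.18, adjusted p = 0.0384, edgeR). In the fit with offsets the median over all genes was -0.07, so the call is not particular to LGMN.

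CTSO encodes cathepsin O, a little characterised papain-like protease. It was at 19.5, 19.0 and 19.9 CPM in CTSV shRNA libraries and at 15.0, 18.5 and 17.2 CPM in control libraries. The groups do not overlap, but the log2 fold change of 0.21 did not pass the edgeR test (95% interval -0.03 to 0.44, adjusted p = 0.153). CTSH, the aminopeptidase cathepsin H, had the fewest reads among the 9 relatives of CTSV. It was at 10.1, 10.2 and 8.64 CPM in CTSV shRNA libraries and at 8.35, 10.0 and 9.72 CPM in control libraries, and its interval of -0.27 to 0.35 was the widest of the 10.

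**Figure D2:**
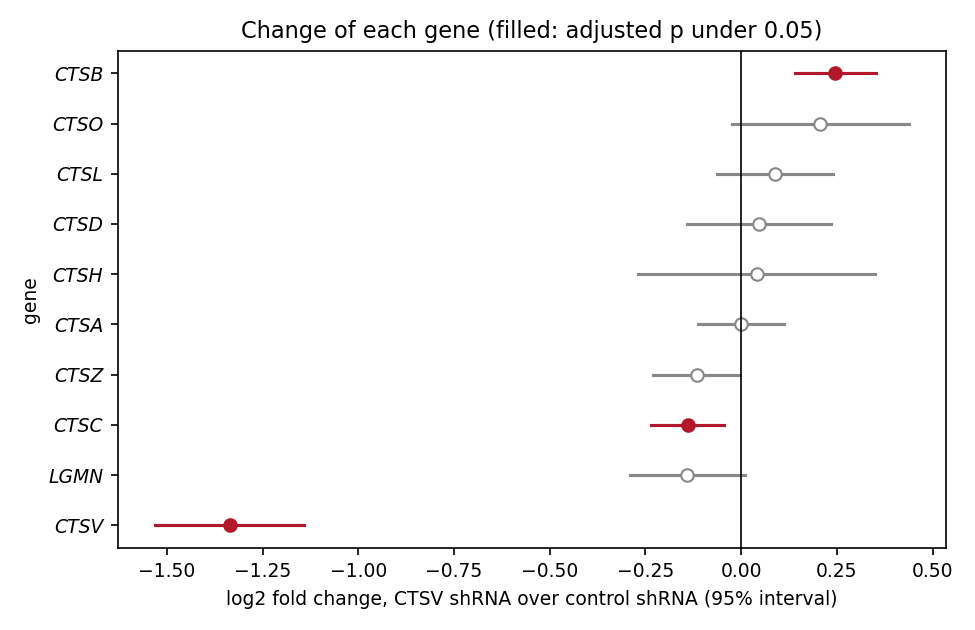
Log2 fold change of each gene (x axis, CTSV shRNA over control shRNA, edgeR) with its 95% interval as a line, genes on the y axis. Filled points passed an adjusted p of 0.05. CTSV is at -1.34, and the other 9 genes lie between -0.14 and 0.25.

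In all, 1 of the 10 genes rose, 2 fell and 7 were not called. Of 15968 genes tested, 40.3% were called, 18.7% higher and 21.6% lower. The share called among the 10 genes, 3 in number, is thus not above that of the table as a whole. CTSV, 1 of the 3, is the target of the shRNA. Of the 9 genes without it, CTSB and CTSC alone were called. With offsets for length and GC content the share of higher genes among all calls was 31.8%, against 46.4% in the fit without them. The median log2 fold change over all genes was -0.07 with the offsets and 0.02 without. The groups did not overlap in 4 of the 10 genes, and in 49.2% of all tested genes. The median log2 fold change was 0.02 over the 10 genes, 0.04 over the 9 without CTSV and 0.02 over all tested genes. The authors' deposited table, whose fold changes are control over CTSV shRNA, has the same 3 genes below an adjusted p of 0.05. In it CTSV is at 1.35 (adjusted p = 5.36e-31), CTSB at -0.24 (0.000152) and CTSC at 0.15 (0.0033).

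The summed level of the 9 relatives, which do not include CTSF, moved little. The 9 genes without CTSV summed to 878.1 ± 7.50 CPM in CTSV shRNA libraries and 880.1 ± 31.8 CPM in control libraries (SD, n = 3 each, exact two-sided permutation test p = 0.8). The difference of -2.01 CPM is within the spread of the control libraries, and its sign depends on the library left out. With CTSV the sums were 895.0 ± 8.38 CPM in CTSV shRNA libraries and 922.8 ± 32.7 CPM in control libraries (n = 3 each, exact permutation p = 0.3). CTSV took 1.89% ± 0.133 of the reads of the 10 genes in CTSV shRNA libraries and 4.62% ± 0.176 in control libraries. CTSB took 20.9% ± 0.885 in CTSV shRNA libraries and 17.1% ± 0.553 in control libraries, and CTSC 25.9% ± 0.660 in CTSV shRNA libraries and 27.7% ± 0.475 in control libraries.

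Levels of different genes were compared per length, as CPM per kilobase of the transcript with the longest coding sequence. CTSC came first, at 120.7 ± 2.12 CPM per kb in CTSV shRNA libraries and 133.0 ± 2.46 in control libraries (SD, n = 3 each). CTSZ (90.6 ± 1.96 in CTSV shRNA libraries and 98.2 ± 7.98 in control libraries), CTSA, CTSB, CTSL, LGMN and CTSD followed in the same order in both groups. CTSV was at 3.91 ± 0.302 CPM per kb in CTSV shRNA libraries, the last place, and at 9.86 ± 0.413 in control libraries, in place 8, ahead of CTSO and CTSH. In control libraries each gene was separated from its neighbours in this order without overlap. In CTSV shRNA libraries LGMN and CTSD, and CTSH and CTSV, overlapped. CTSL was at 37.2 ± 5.21 CPM per kb in CTSV shRNA libraries and 34.9 ± 2.11 in control libraries, so that of this pair CTSL was the more abundant transcript in both groups. The first place of CTSC and the last place of CTSV depend on the annotated length. With all exons joined CTSV was at 3.59 CPM per kb in CTSV shRNA libraries, ahead of CTSH at 1.64. With the longest coding transcript of each gene CTSC was at 37.9 CPM per kb in CTSV shRNA libraries and 41.7 in control libraries, and with all exons joined at 20.3 in CTSV shRNA libraries and 22.4 in control libraries, and in both cases CTSZ came first in both groups.

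**Figure D3:**
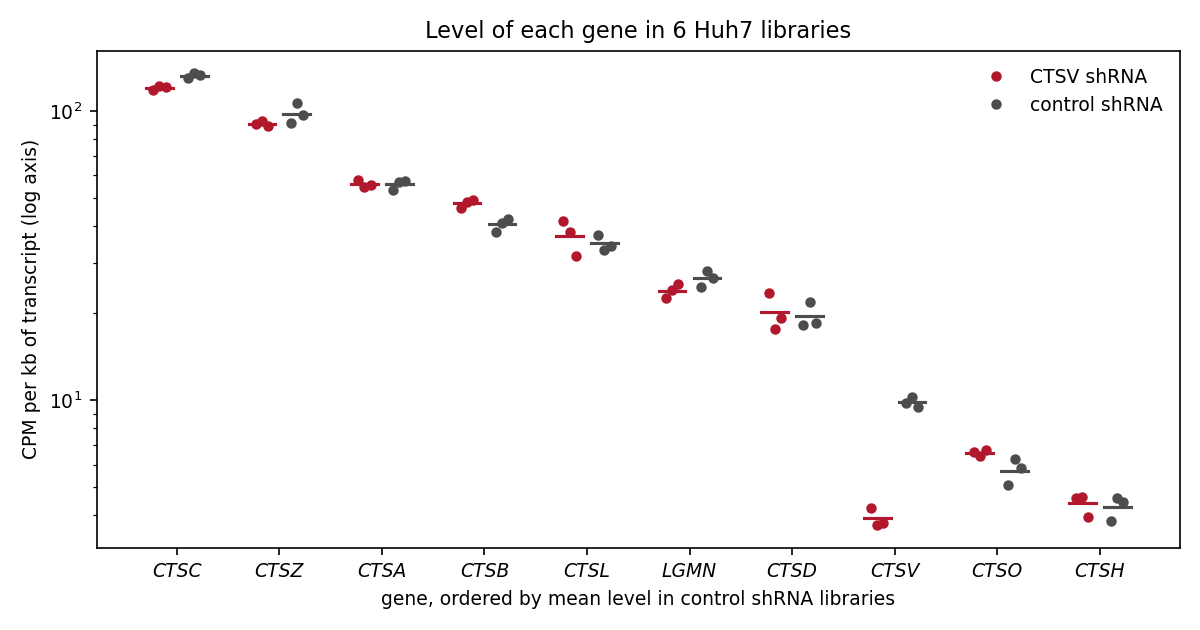
Level of each gene as CPM per kb of transcript (y axis, log scale) in the 3 CTSV shRNA libraries (left of each pair) and the 3 control libraries (right), with points for libraries and lines for group means. CTSV is at 3.91 in CTSV shRNA libraries and 9.86 in control libraries. CTSC is the highest in both groups at the length used here, that of the transcript with the longest coding sequence.

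Promoter windows from RefSeq (GRCh38.p14, 250 bases before to 50 after the start) were matched for 7 of the 10 genes. A gene was counted if any of its windows held the motif, while the background is the share of single windows, so the 2 are not like measures. The hexamer CACGTG, which reads the same on both strands, was in 2 of the 7 genes, CTSA and CTSD. It was in 7.26% of 35116 windows of all genes. TATAAA, searched on both strands, was in 0 of the 7 genes and in 11.5% of all windows. CCAAT, searched on both strands, was in the windows of CTSC, CTSL and CTSV, and in 34.6% of all windows.

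The genes whose pattern over the 6 libraries was most like that of CTSV were NES, SLC7A5, GJA1, CCL20 and DUSP1. Likeness was measured as the root mean square difference of log2 CPM values, after subtracting each gene's control mean, among the 9975 tested genes whose average log2 CPM reached 3. NES, the gene of the intermediate filament protein nestin, was nearest at 0.0744 log2 units and had a log2 fold change of -1.39. The amino acid transporter gene SLC7A5 was at 59.7 ± 3.16 CPM in CTSV shRNA libraries and 156.8 ± 3.46 CPM in control libraries (n = 3 each), also at -1.39. The gap junction gene GJA1 was at 182.7 ± 0.452 CPM in CTSV shRNA libraries and 439.8 ± 3.18 CPM in control libraries. CCL20, the gene of a chemokine, was at 62.1 ± 7.06 CPM in CTSV shRNA libraries and 163.6 ± 17.3 CPM in control libraries, and DUSP1, the gene of a phosphatase of MAP kinases, at 24.1 ± 0.117 CPM in CTSV shRNA libraries and 57.5 ± 1.83 CPM in control libraries. These genes were picked for this likeness, and their changes are a description.

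Among the other cathepsins of a list of 6, 4 passed the filter, of which 2 rose and 2 were not called, beside 40.3% called and 18.7% higher among all tested genes. CTSK, the bone-resorbing cathepsin K of osteoclasts, was at 8.97 ± 0.886 CPM in CTSV shRNA libraries and 6.03 ± 0.830 CPM in control libraries (n = 3 each), with a log2 fold change of 0.57 (adjusted p = 0.00779, edgeR). CTSF was at 43.0 ± 2.80 CPM in CTSV shRNA libraries and 28.4 ± 3.0 CPM in control libraries, and its log2 fold change was 0.60 (adjusted p = 1.45e-06, edgeR). CTSS, the cathepsin of antigen-presenting cells, was at 7.15 ± 1.68 CPM in CTSV shRNA libraries and 6.68 ± 0.737 CPM in control libraries and was not called (95% interval -0.29 to 0.48). CTSE was not called at -0.47 (95% interval -1.11 to 0.16).

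Of 14 inhibitors listed, 4 passed the filter, of which 1 rose, 2 fell and 1 was not called. With 4 genes tested, this count cannot be set apart from the 40.3% called among all genes. CSTB, the intracellular inhibitor cystatin B, was at 32.8 ± 2.78 CPM in CTSV shRNA libraries and 43.7 ± 2.59 CPM in control libraries (n = 3 each), with a log2 fold change of -0.41 (adjusted p = 0.000175, edgeR). CST3, the secreted cystatin C, was not called at 0.12 (95% interval -0.05 to 0.30). KNG1, the plasma kininogen with cystatin domains, rose by 0.87 on the log2 scale. CSTA had 9 reads in each CTSV shRNA library and 26, 27 and 14 in control libraries. Its log2 fold change was -1.31 (adjusted p = 0.0376, edgeR). In 8 alternative settings it was -1.34 to -1.14 and was not called (adjusted p = 0.0546 to 0.147).

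Among 15 genes of mannose 6-phosphate tagging and of sorting to the lysosome, 1 rose, 5 fell and 9 were not called, with a median log2 fold change of -0.01. The share called is near the 40.3% of all tested genes. Both mannose 6-phosphate receptors fell. M6PR, the cation-dependent receptor, was at 87.5 ± 8.03 CPM in CTSV shRNA libraries and 116.1 ± 3.63 CPM in control libraries (n = 3 each), with a log2 fold change of -0.41 (adjusted p = 1.43e-06, edgeR). IGF2R, the cation-independent receptor, was at -0.16 (adjusted p = 0.00313, edgeR). SORT1, the gene of the alternative sorting receptor sortilin, rose by 0.29 (adjusted p = 6.02e-05, edgeR). With offsets for length and GC content IGF2R was at -0.34 and SORT1 at 0.16, and both were still called. The median over all genes in that fit was -0.07. LMAN1 (-0.36) and MCFD2 (-0.34), whose products form a cargo receptor for export from the endoplasmic reticulum, and the adaptor subunit gene AP1S1 (-0.39) fell. The tagging enzyme genes GNPTAB, GNPTG and NAGPA were not called, with GNPTAB at 0.00 (95% interval -0.11 to 0.11).

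Of the partners of lysosomal enzymes, NEU1 fell and GLB1 and PSAP were not called. NEU1, the neuraminidase that needs cathepsin A for its stability, was at 144.1 ± 3.55 CPM in CTSV shRNA libraries and 209.5 ± 6.74 CPM in control libraries (n = 3 each), with a log2 fold change of -0.54 (adjusted p = 6.45e-11, edgeR). GLB1, the beta-galactosidase of the same complex, was at 0.05 with a 95% interval of -0.06 to 0.16. PSAP, the saposin precursor, was at 0.02 with an interval of -0.06 to 0.10.

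**Figure D4:**
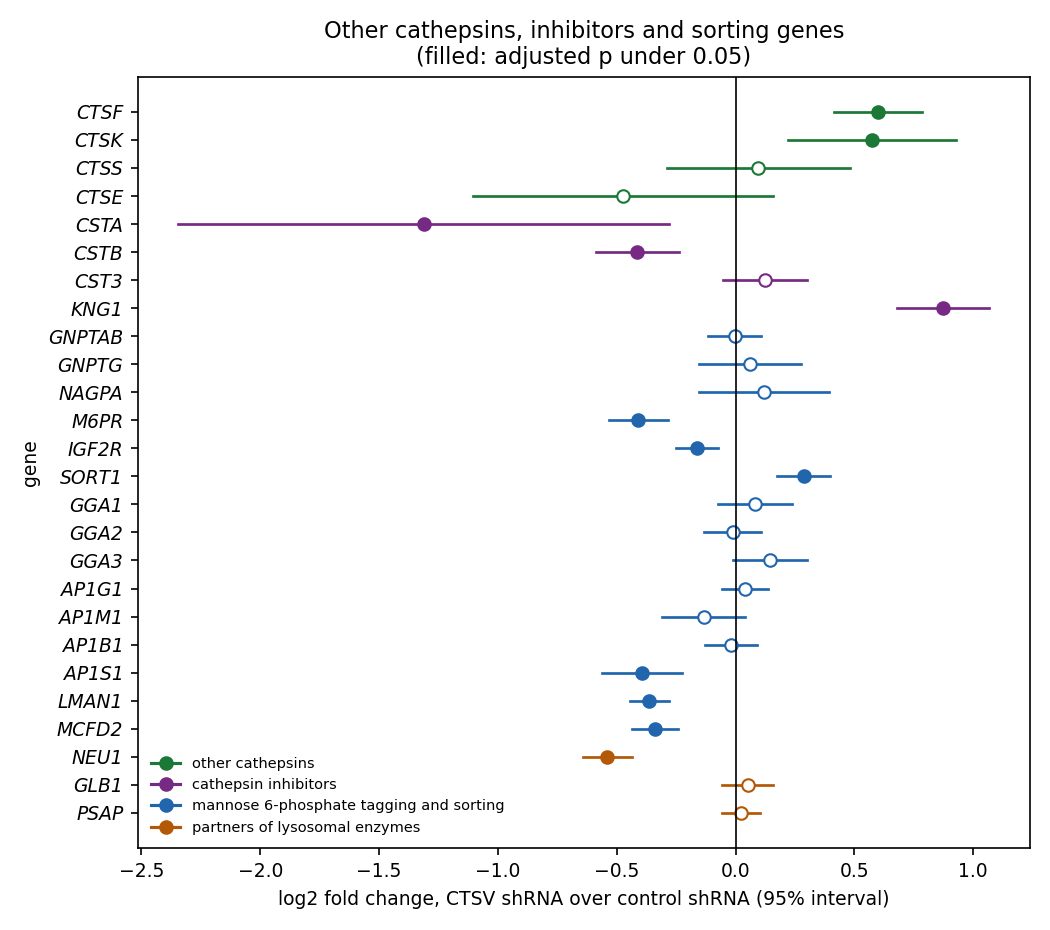
Log2 fold change (x axis, CTSV shRNA over control shRNA, edgeR) with 95% intervals for other cathepsins, cathepsin inhibitors, sorting genes and partners of lysosomal enzymes (y axis, coloured by list). Filled points passed an adjusted p of 0.05, and M6PR at -0.41 and SORT1 at 0.29 are on opposite sides of 0.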

How the data were processed

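Read counts per gene were deposited by the authors as raw whole-number counts in 1 table of 6 libraries. The submitters' processing notes name hg38, SAMtools, StringTie and HISAT2, and per the labels' protocols libraries came from TRIzol RNA with an NEBNext Ultra II kit. No source used here gives the counter, annotation or strand use. Beside the counts it holds log2 fold changes, p-values and adjusted p-values by the authors, shown only where named. Of 28915 entries, 1521 copies of a gene name with equal values were removed. Libraries held 16258803 to 18106207 counts.

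Differences were tested with edgeR 4.0.16 under R 4.3.3 (quasi-likelihood, TMM, filterByExpr, Benjamini-Hochberg over 15968 genes, threshold 0.05). SE is the log2 fold change over the square root of F, and 95% intervals use the t distribution. The biological coefficient of variation over all genes was 6.87%. Single values per library were compared with exact permutation tests (SciPy 1.17.1). Scripts were tested on simulated data. All 10 genes are named, as are called genes of each gene and marker list and the 5 most like CTSV. The genes and lists were chosen with earlier results of these data known. Transcripts come from GENCODE v29. Alternatives were RLE factors, other filters, DESeq2 1.42.0, the replicate block, omission of mitochondrial genes, length and GC offsets, and omission of each library. Libraries of a group differed by more than sampling noise.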

Additional observations from a re-analysis of the deposited data

How the results depend on the processing

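The calls of CTSV and CTSB held under all 13 alternatives, with CTSV between -1.43 and -1.30 and CTSB between 0.17 and 0.27 (log2 fold change). CTSC lay between -0.22 and -0.13 and was not called without knockdown replicate 1. Leaving out each library in turn gave -0.0063 to 0.20 for CTSL, -0.16 to -0.13 for CTSC, -0.079 to 0.13 for CTSD, -0.17 to -0.056 for CTSZ, -0.039 to 0.016 for CTSA and -0.043 to 0.12 for CTSH. It gave 1 to 2 of the 10 genes called higher and 1 to 3 lower, and a difference of -19.1 to 12.4 CPM in the sum of the 9 relatives. CTSA, near 0 throughout, was at 7.7e-05 with RLE factors and 0.0059 with a filter at a mean CPM of 1. With length and GC offsets CTSH was at -0.00046 and LGMN at -0.18 with a call, while the median over all genes was -0.07. The cause of these shifts was not tested. Of the 9 neighbouring pairs in the order by level per length, 4 kept their order in CTSV shRNA libraries and 6 in control libraries with all exons joined, and 8 in each group with the longest coding transcript, an alternative chosen after seeing the data. CSTA was no longer called with DESeq2 (-1.33, adjusted p = 0.0803) or with the replicate block (-1.28, adjusted p = 0.0589), at a fold change close to that shown (-1.31). Libraries with the same replicate number did not deviate together (correlations of -0.0122, -0.0025 and 0.0212), so the block is only a check. With it CTSV was at -1.34, and 1 of the 10 genes was called higher and 2 lower.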
